A study of Homo sapiens with 30 samples.

Results

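The response to 1 antisense oligonucleotide (ASO) was compared between 2 established neuroblastoma cell lines. For each gene the change that ASO2 made in SK-N-BE(2)c cells was set against the change it made in NGP cells, so a gene stands out only where the lines responded unequally. ASO2 is 1 of 3 ASOs of the series that target NESPR, a long non-coding RNA that the series describes as particular to adrenergic neuroblastoma cells and ties to stress and cell death. The 4 groups were SK-N-BE(2)c with ASO2, SK-N-BE(2)c with the negative control ASO (NCA), NGP with ASO2 and NGP with NCA, with 3 libraries each. All 4 groups had received an ASO at 100 nM by lipofection, controls included. These are 12 of the 30 libraries of the series. Of the 57905 genes listed for both lines, the 10119 whose mean normalized count was at least 50 in the controls of each line were compared. At that limit LINC02691 was just inside, with a control mean of 50.02 in SK-N-BE(2)c, and among those just outside SLC25A42 had 49.9 in NGP and MINCR 49.9 in SK-N-BE(2)c. A further 1021 genes reached 50 in NGP only and 834 in SK-N-BE(2)c only, and these were left out.

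Both lines carry amplified MYCN, the oncogene that marks high-risk neuroblastoma. NGP also carries amplified MDM2, the gene of a ubiquitin ligase of the p53 pathway, and SK-N-BE(2)c is a subclone of SK-N-BE(2), from a relapsed tumour. The p53 pathway answers stress by inducing genes for cell cycle arrest, DNA repair and cell death, and MDM2 is itself one of its targets. Each genotype is represented by a single line here, so the many differences between the lines cannot be told apart. Other stress programmes return in the results. ATF4 is translated when amino acids or folding capacity run short and induces genes of amino acid uptake and synthesis, and HSF1 induces chaperone genes when proteins misfold. In bulk RNA, fewer cells of a kind and less RNA per cell cannot be told apart.

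The reads recovered per library ran from 11497829 to 15060356, and no 2 replicates were alike within counting noise (chi-square per degree of freedom at least 2.217). Whether the numbered libraries of a group came from separate cultures is not stated, so p-values measure only the spread between these libraries, which may be technical. Libraries are named here by line, ASO and replicate number, as in NGP NCA 1. The column of control replicate 1 is spelled otherwise than those of replicates 2 and 3 in both lines. Titles place all 3 in 1 group, but the labels do not settle whether the other spelling is another oligonucleotide. No batch is named, and the kit of each library is not stated. All 8 adrenergic markers were expressed in every library, and the level summed over the 8 was lower with ASO2 in both lines, at 35875 to 38535 against 39869 to 45567 in SK-N-BE(2)c and at 36492 to 38033 against 42306 to 44658 in NGP. Of the 8, 5 had a lower mean with ASO2 in both lines, while the means of GATA3 and ISL1 were higher in both and that of DBH was higher in SK-N-BE(2)c and lower in NGP. The 7 mesenchymal markers summed to 991 to 1010.03 with ASO2 against 830 to 928 in the NGP controls, without overlap, and to 196 to 232 against 170 to 238 in SK-N-BE(2)c, with overlap. The 5 blood markers summed to 43.1 to 61.6 with ASO2 against 30.3 to 38.6 in the SK-N-BE(2)c controls and to 29.6 to 34.5 against 9.23 to 24.8 in NGP, apart in both lines, with CD14 the highest of them and PTPRC and CD3E at 0 in all 12 libraries. The endothelial marker CDH5 lay at 12.2 to 20.8 with ASO2 against 2.02 to 4.82 in the SK-N-BE(2)c controls and at 0 to 1.97 against 0 in NGP. The 3 epithelial markers summed to at most 11.3 in any library, with KRT5 at 0 in all 12. The part of these markers in the results was not tested.

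The name NESPR matched no gene symbol or synonym in the reference tables used here, so no value is given under it. LINC00682, a long non-coding RNA, fell in both lines to a like extent. In NGP its normalized count was 743, 792 and 671 in the controls and 396, 487 and 445 with ASO2. For SK-N-BE(2)c the counts were 152, 135 and 157 in the controls and 85.1, 106 and 84.0 with ASO2. Control and ASO2 libraries did not overlap in either line, and the log2 effects of -0.73 in NGP against -0.69 in SK-N-BE(2)c differed by 0.04 (95% interval -0.29 to 0.37, limma adjusted p 0.879).

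The effects of ASO2 went together across genes in the 2 lines. With the deposited scaling they departed from each other most often among adrenergic transcription factors, chaperones, p53 targets, ATF4 targets and ribosomal protein genes. In these lists 63.2%, 63.0%, 51.9%, 51.7% and 48.1% of tested members, in that order, were called for a difference, the highest shares of the 30 lists described below. The ranking changed with every library rescaled to 1 total: 23 of 77 ribosomal protein genes were then called, beside 10 of 18 genes of the ID and SMAD list. Across the 10119 genes, which are not independent replicates, the effects had a Pearson r of 0.874, and 84.5% of genes had the same sign in both lines. ASO2 changed 7577 genes in SK-N-BE(2)c (74.9% of those tested, 38.1% rising and 36.7% falling) and 6799 in NGP (67.2%, 35.5% rising and 31.6% falling). The difference between the lines was called, at a limma adjusted p under 0.05, for 2291 genes, which is 22.6% of those tested. Of these, 1191 (11.8% of genes tested) had an effect more positive in SK-N-BE(2)c and are called higher below, and 1100 (10.9%) had an effect more negative there and are called lower. Most differences were small: the median size was 0.38 on the log2 scale among genes higher and -0.45 among genes lower, and 51 genes differed by at least 1 log2 unit, 16 of them higher and 35 lower. Without control replicate 1 of both lines, whose column is spelled otherwise, 773 genes were higher and 612 lower.

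**Figure D1:**
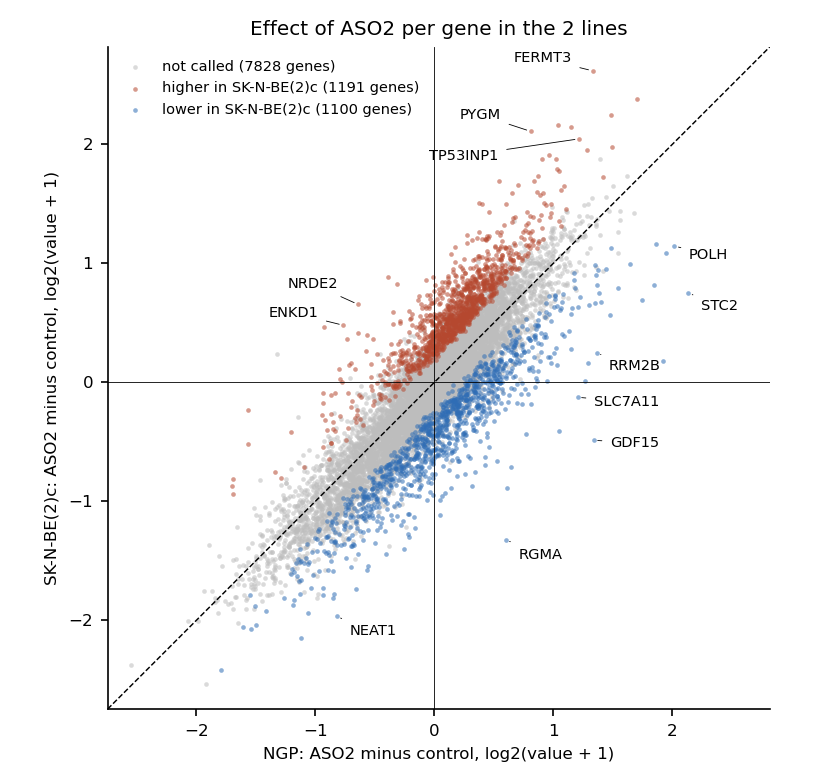
Effect of ASO2 against the control ASO per gene, NGP on the x axis and SK-N-BE(2)c on the y axis, both as differences of mean log2(value + 1) over 3 libraries a group. The 10119 genes lie along the dashed line of equal effects, with the 1191 genes higher in SK-N-BE(2)c above it, the 1100 lower below it, and RGMA, GDF15 and STC2 among those farthest below.

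The balance of the 2 directions depended on the scaling. The values as the authors scaled them summed in SK-N-BE(2)c to 13651873 to 13794004 per library with ASO2 and to 12400094 to 12512360 in its controls. In NGP they summed to 12776657 to 12894243 with ASO2 and to 12147829 to 12301684 in the controls. With every library rescaled to 1 total, 752 genes were higher and 1672 lower (31.0% higher, against 52.0% with the deposited scaling), and lists below are given with both. The deposited scaling gave 1191 higher and 1100 lower. The counts of a list with rescaled totals include this move of all genes towards lower. Rescaling moved the median effect over all genes from 0.01 to -0.13 in SK-N-BE(2)c and from 0.03 to -0.04 in NGP. The genes called in SK-N-BE(2)c then split into 2936 that rose and 4595 that fell (39.0% rising, against 50.9%).

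Much of the difference was one of size rather than of direction. Among the 1191 genes higher, 624 rose in both lines and rose more in SK-N-BE(2)c (median log2 effect 0.75 against 0.35 in NGP), 391 were called in SK-N-BE(2)c alone, and all of those rose there. A further 97 were called in NGP alone, where all fell, and 32 fell in both lines but less in SK-N-BE(2)c. Among the 1100 genes lower, 325 fell in both and fell more in SK-N-BE(2)c (-0.98 against -0.52), 319 were called in SK-N-BE(2)c alone and fell there, and 238 were called in NGP alone and rose there. Another 128 rose in both but more in NGP. Only 121 genes, 1.2% of those tested, were called in both lines with opposite signs. In all, 949 of the 2291 genes moved one way in both lines and further in SK-N-BE(2)c, and 160 moved one way in both and further in NGP. These classes were made with the deposited scaling only, and their counts with rescaled totals were not worked out.

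The p53 targets whose response differed were lower in SK-N-BE(2)c, with a single exception. Of 35 genes listed as p53 targets, 27 passed the filter, 13 of them were lower, 1 was higher and 13 were not called. The median difference was -0.31 on the log2 scale, beside -0.01 over all genes tested. Within NGP 21 of the 27 rose and 1 fell (35.5% and 31.6% of all genes tested), and within SK-N-BE(2)c 15 rose and 7 fell (38.1% and 36.7% of all genes). With rescaled totals, which moved all genes towards lower, 1 was higher and 16 lower. Leaving out NCA 1 of both lines left 1 higher and 10 lower. There were 2 higher without NGP NCA 3.

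MDM2 showed the contrast at high precision. Its normalized count in NGP was 27189.8, 26306 and 28486 in the controls and 55881, 53523 and 56853 with ASO2. For SK-N-BE(2)c cells the values were 986, 1057 and 1071 in the controls and 1307, 1208 and 1287 with ASO2. The groups did not overlap in either line, and MDM2 rose in both. The log2 effect was 1.02 in NGP against 0.29 in SK-N-BE(2)c, and the difference was -0.73 (SE 0.07, adjusted p 1.34e-07).

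GDF15, a secreted stress cytokine, moved in opposite directions. Its normalized count was 134, 152 and 79.0 in the NGP controls and 309, 274 and 310.4 with ASO2. SK-N-BE(2)c had 281, 297 and 232 in the controls and 203, 199 and 174 with ASO2. All NGP libraries with ASO2 were above their controls and all SK-N-BE(2)c libraries with ASO2 below theirs, and the difference of -1.82 (SE 0.23, adjusted p 4.22e-06) was the second largest among all genes that stayed called without each library. RRM2B, a ribonucleotide reductase subunit that supplies DNA repair, had counts of 229, 176 and 260.5 in the NGP controls and 566, 567 and 563 with ASO2. For SK-N-BE(2)c its counts were 209, 241 and 258 in controls and 275, 296 and 266 with ASO2, and the difference was -1.12 (SE 0.16, adjusted p 3.51e-05). RRM2B rose in NGP, while in SK-N-BE(2)c its effect of 0.24 narrowly missed the threshold (limma adjusted p 0.0563) although the groups were apart.

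RPS27L and FDXR rose in NGP and did not pass the test in SK-N-BE(2)c. RPS27L, a ribosomal protein paralogue, stood at 1076, 1058 and 997 in the NGP controls and 1677, 1676 and 1829 with ASO2, and in SK-N-BE(2)c at 309.7, 308 and 283 in controls and 289, 286 and 263 with ASO2, a difference of -0.83 (SE 0.11, adjusted p 6.67e-06). FDXR, a mitochondrial reductase, stood at 472, 442 and 279 in the NGP controls and 708, 659.6 and 722 with ASO2 and at 108, 117 and 103 in the SK-N-BE(2)c controls and 110.5, 95.2 and 113 with ASO2, a difference of -0.89 (SE 0.20, adjusted p 0.00218). For both genes the ASO2 libraries of NGP lay above their controls without overlap, and those of SK-N-BE(2)c overlapped theirs. SESN1, a stress-induced inhibitor of growth signalling, rose by 0.25 in NGP, which only just passed (adjusted p 0.0456). It had an effect of -0.42 in SK-N-BE(2)c, where it fell, with a difference of -0.67 (SE 0.15, adjusted p 0.00275).

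POLH, the DNA polymerase that copies past ultraviolet damage, rose in both lines. It was at 183, 151 and 235 in the NGP controls and 771, 705 and 799.8 with ASO2, and at 208, 151 and 219 in the SK-N-BE(2)c controls and 402, 429.7 and 434 with ASO2, so that it rose 4.05-fold in NGP and 2.21-fold in SK-N-BE(2)c, with a difference of -0.87 (SE 0.18, adjusted p 0.00154). TP53INP1, which promotes p53-dependent death and autophagy, was the exception of the list. Its count was 51.3, 50.4 and 49.2 in the SK-N-BE(2)c controls and 198, 209 and 226 with ASO2, and in NGP 487, 455 and 452 in controls and 1058, 1057 and 1124 with ASO2. It rose without overlap in both lines but from a level near the filter in SK-N-BE(2)c, and its difference was 0.83 (SE 0.13, adjusted p 0.00012).

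The other 6 targets called lower were less firm or smaller. TP53I3 fell in SK-N-BE(2)c and was not called in NGP (difference -0.37, adjusted p 0.00704) and stayed called without each library. TIGAR, an inhibitor of glycolysis, had a difference of -0.55, adjusted p 0.0146, and it was not called without NGP NCA 1 (difference -0.48, adjusted p 0.0536). SUSD6 had -0.45, adjusted p 0.0145, and it was not called without NGP NCA 1 (difference -0.40, adjusted p 0.0506). With NCA 1 of both lines left out, SUSD6 (adjusted p 0.0791), CCNG1 (adjusted p 0.0605) and SESN2 (adjusted p 0.0834) were not called. DESeq2 did not call SESN2 either (adjusted p 0.111). CCNG1 had -0.30, adjusted p 0.0182, and it was not called without NGP ASO2 3 or SK-N-BE(2)c ASO2 1 (difference -0.25 each time, adjusted p 0.058 to 0.0642). SESN2 had -0.49, adjusted p 0.0199, and it was not called without NGP ASO2 3, SK-N-BE(2)c ASO2 2, SK-N-BE(2)c NCA 1 or SK-N-BE(2)c NCA 2 (differences -0.44 to -0.39, adjusted p 0.0507 to 0.0726). DDB2, a sensor of ultraviolet damage, had -0.52, adjusted p 0.0246, and it was not called without NGP ASO2 1, NGP ASO2 3, NGP NCA 2, SK-N-BE(2)c ASO2 2 or SK-N-BE(2)c NCA 2 (differences -0.51 to -0.41, adjusted p 0.057 to 0.0724). The 13 members that were not called ran from -0.38 (PLK3) to 0.20 (GADD45A). They include the death genes BBC3 (-0.04, 95% interval -0.41 to 0.33) and BAX (0.06, -0.14 to 0.25) and the phosphatase PPM1D (0.02, -0.22 to 0.26).

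**Figure D2:**
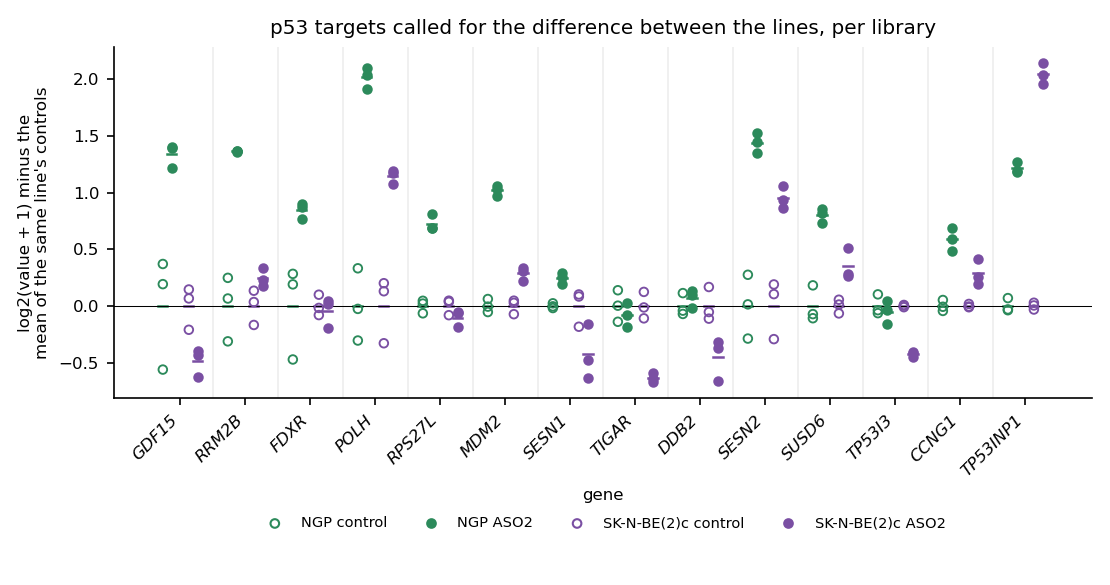
The 14 p53 targets called for the difference between the lines, ordered by it. Each point is 1 library, as log2(value + 1) minus the mean of the 3 controls of its own line, open for controls and filled for ASO2, and short bars are means; the mean with ASO2 is farther up in NGP for every gene except TP53INP1.

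The other 8 listed targets, CDKN1A, FAS, TNFRSF10B, PHLDA3, SPATA18, CMBL, FUCA1 and EDA2R, failed the filter. CDKN1A, the cell cycle inhibitor that is the best known p53 target, missed it narrowly with a control mean of 48.9 in SK-N-BE(2)c. Its count was 2441, 2514 and 1978 in the NGP controls and 6458, 5884 and 6442 with ASO2, and 47.1, 53.4 and 46.3 in the SK-N-BE(2)c controls and 76.2, 70.7 and 57.6 with ASO2. It rose in both lines without overlap. With the filter lowered to a control mean of 10, its difference was -0.98 (SE 0.14, adjusted p 5.17e-05). FAS, a death receptor, stood at 39.2, 47.9 and 49.2 in the NGP controls and 214, 203 and 218 with ASO2, but at 8.37, 8.07 and 5.78 in the SK-N-BE(2)c controls and 4.42, 7.25 and 7.2 with ASO2, which is too near 0 for a fold.

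The IMR32 libraries, 4 with ASO2 and 4 with NCA, took no part in the difference. IMR32 is another neuroblastoma line with amplified MYCN, and its table was scaled apart, so only its own effects are set beside the others. In it ASO2 changed 43.0% of 12418 genes tested, 23.4% upwards and 19.6% downwards. Of the 25 p53 targets tested there, 23 rose and 0 fell (median log2 effect 0.51). MDM2 rose by 0.91 (adjusted p 4.06e-09), RRM2B by 0.88 (adjusted p 1.72e-07), FDXR by 1.29 (adjusted p 4.6e-07) and CDKN1A by 1.05 (adjusted p 7.11e-07). Whether these effects differ from those in the other lines was not tested. ASO10, another NESPR ASO, was used in NGP and SK-N-BE(2)c against the same 6 control libraries. Its own difference between the lines was called for 22.4% of genes, 10.7% higher and 11.7% lower. For ASO10, 0 of the 27 targets were higher and 19 lower, MDM2 differed by -1.31 (adjusted p 2.99e-14) and GDF15 by -0.37 (adjusted p 0.245), beside -0.73 and -1.82 with ASO2. The shared controls mean that these are not independent of the values with ASO2.

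Genes of the ATF4 response mostly rose in both lines, and those called for a difference were mostly lower in SK-N-BE(2)c. Of 30 listed, 29 passed the filter, 12 were lower, 3 higher and 14 not called, with a median difference of -0.24. Within SK-N-BE(2)c 24 of the 29 rose and 3 fell (38.1% and 36.7% of all genes tested). Within NGP 26 rose and 2 fell (35.5% and 31.6% of all genes). With rescaled totals 0 were higher and 12 lower, and leaving out NCA 1 of both lines left 0 higher and 9 lower. There were 7 lower without SK-N-BE(2)c ASO2 2. There were 0 higher without NGP ASO2 2, and 1 without NGP NCA 1 or NGP NCA 2. SESN2 stands in this list and among the p53 targets.

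STC2, a secreted glycoprotein of calcium and phosphate balance, rose in both lines and more in NGP. Its count was 261, 297 and 242 in the NGP controls and 1226, 1123 and 1164 with ASO2, and 831, 886 and 855 in the SK-N-BE(2)c controls and 1514, 1414 and 1400.1 with ASO2, a difference of -1.38 (SE 0.11, adjusted p 2.37e-09). SLC7A11, the cystine importer that feeds glutathione synthesis, was at 319, 318 and 258 in the NGP controls and 687, 661 and 707 with ASO2. For SK-N-BE(2)c the counts were 536, 626 and 502 in controls and 486, 442 and 602 with ASO2. Its NGP groups were apart, its SK-N-BE(2)c groups overlapped, and the difference was -1.33 (SE 0.15, adjusted p 9.37e-07). JDP2, a repressor of the AP-1 family, had counts of 53.7, 70.0 and 57.4 in the NGP controls and 103, 103 and 102 with ASO2 and 249, 241 and 287 in the SK-N-BE(2)c controls and 222, 182 and 172 with ASO2. It rose in NGP and fell in SK-N-BE(2)c, and the difference was -1.20 (SE 0.20, adjusted p 0.000127). In IMR32, SLC7A11 fell, with an effect of -0.83 (adjusted p 8.47e-05), and 14 of 28 listed genes fell while 7 rose (19.6% and 23.4% of all genes tested there). With ASO10 the difference between the lines was -1.21 (adjusted p 3.92e-09) for STC2, -0.48 (adjusted p 0.022) for SLC7A11 and -0.21 (adjusted p 0.418) for JDP2.

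The genes called higher were ATF4 itself, SLC3A2, the partner chain of SLC7A11 and other transporters, and PPP1R15A, which restores translation after stress. SLC3A2 stood at 2561, 2458 and 2565 in the SK-N-BE(2)c controls and 6623, 6227 and 6537 with ASO2, and at 2219.8, 2280.0 and 1864 in the NGP controls and 4491, 4077 and 4541 with ASO2. The 2 chains of this transporter parted in SK-N-BE(2)c, where SLC3A2 rose without overlap and SLC7A11 had an effect of -0.13. The difference was 0.31 (SE 0.09, adjusted p 0.0146) for SLC3A2, and SLC3A2 was not called without NGP ASO2 2 or NGP NCA 1 (differences 0.26 to 0.27, adjusted p 0.0522 to 0.0584). For ATF4 it was 0.28 (SE 0.09, adjusted p 0.0199), and ATF4 was not called without NGP ASO2 2 or NGP NCA 2 (differences 0.21 to 0.25, adjusted p 0.0687 to 0.0692). For PPP1R15A it was 0.38 (SE 0.13, adjusted p 0.039), and it stayed called only without NGP NCA 3, SK-N-BE(2)c ASO2 2 or SK-N-BE(2)c NCA 2 (elsewhere 0.28 to 0.40, adjusted p 0.0528 to 0.15). With NCA 1 of both lines left out, SLC3A2 (adjusted p 0.0644), ATF4 (adjusted p 0.0998) and PPP1R15A (adjusted p 0.189) were not called. With rescaled totals the 3 differences were 0.24 (adjusted p 0.0522), 0.22 (adjusted p 0.0727) and 0.32 (adjusted p 0.0951) in that order.

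The bases before the RefSeq start sites were searched for the CEBP-ATF response element, TGATGNAA on either strand, which ATF4 binds with its partners. In the 250 bases before a start it was present at 3.14% of the 35116 starts in the table and in 2.05% of the 8133 tested genes that matched by symbol, counting a gene with any such start. Of the 25 matched list members, 6 had it, including 3 of the 10 matched members called lower and 0 of the 3 called higher. JDP2 is shown because it is the member of the 3 named above in which the element was found, with 8 bases between it and a start. The stretch lies at chr14:75427956-75428021 (plus strand) in GRCh38.p14, read 5′ to 3′ with the element in capitals.
JDP2: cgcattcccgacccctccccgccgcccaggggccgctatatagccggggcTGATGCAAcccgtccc
A match of these letters is a description and not evidence of binding.

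The chaperone genes whose response differed were higher in SK-N-BE(2)c, again with a single exception. Of 30 listed, 27 passed the filter, 16 were higher and 1 lower, with a median difference of 0.25. Within SK-N-BE(2)c 20 of the 27 rose and 3 fell (38.1% and 36.7% of all genes tested). Within NGP 16 rose and 4 fell (35.5% and 31.6% of all genes). With rescaled totals 10 were higher and 2 lower, and leaving out NCA 1 of both lines left 9 higher and 0 lower. There were 10 higher without SK-N-BE(2)c NCA 2.

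DNAJB1, the HSP40 co-chaperone and a sensitive reporter of HSF1, was at 1235, 1158 and 1219 in the SK-N-BE(2)c controls and 2839, 2933 and 2882 with ASO2. In NGP it was at 1591, 1537 and 1527 in controls and 2297, 2186 and 2372 with ASO2. The groups were apart in both lines, and the difference was 0.70 (SE 0.08, adjusted p 9.02e-07). DNAJA1, a second HSP40, had counts of 2759, 2702 and 3180.5 in the SK-N-BE(2)c controls and 5121, 5095 and 5855 with ASO2 and of 5729.9, 5511 and 6329 in the NGP controls and 7322, 7036 and 7599 with ASO2, with a difference of 0.57 (SE 0.09, adjusted p 0.000104). Both rose in both lines, and in IMR32 as well, by 1.11 (adjusted p 4.6e-07) and 0.39 (adjusted p 8.11e-06). HSPB1, the small chaperone HSP27, had by far the higher level in SK-N-BE(2)c, with 1146, 996 and 1013 in controls and 1304, 1233 and 1010.2 with ASO2, beside 73.8, 62.0 and 56.4 in the NGP controls and 45.5, 54.3 and 23.4 with ASO2. It fell in NGP, where NGP ASO2 3 was lowest, and its difference of 0.87 (SE 0.26, adjusted p 0.017) moved with that library: without NGP ASO2 3 it was 0.51 (adjusted p 0.0397), and HSPB1 was not called without NGP NCA 1 (difference 0.76, adjusted p 0.0536). The only member called lower was HSPE1, the mitochondrial co-chaperonin (-0.30, adjusted p 0.0409), which stayed called only without NGP NCA 3, SK-N-BE(2)c ASO2 2, SK-N-BE(2)c NCA 1 or SK-N-BE(2)c NCA 2 (elsewhere -0.31 to -0.23, adjusted p 0.0522 to 0.125), and which edgeR did not call (adjusted p 0.0505). With NCA 1 of both lines left out, HSPB1 (adjusted p 0.0596) and HSPE1 (adjusted p 0.0737) were not called.

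HSF1 binds inverted GAA repeats, and the pair GAANNTTC, which reads the same on both strands, was sought in the same 250 bases. It was present at 5.78% of all starts, in 5.47% of matched tested genes, and in 12 of the 24 matched list members, 9 of them among the 15 matched members called higher. The others with the pair were members that were not called. The 3 called members with the largest differences all had it, and their stretches are shown for that reason, 5′ to 3′ in GRCh38.p14 with each pair in capitals. They lie at chr19:14518398-14518524 (minus strand), chr9:33025025-33025132 (plus strand) and chr7:76302441-76302548 (plus strand).
DNAJB1: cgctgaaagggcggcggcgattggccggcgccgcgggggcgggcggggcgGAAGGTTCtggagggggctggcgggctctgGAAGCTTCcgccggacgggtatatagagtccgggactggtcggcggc
DNAJA1: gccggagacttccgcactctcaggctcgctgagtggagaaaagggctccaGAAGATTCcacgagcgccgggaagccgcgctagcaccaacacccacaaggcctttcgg
HSPB1: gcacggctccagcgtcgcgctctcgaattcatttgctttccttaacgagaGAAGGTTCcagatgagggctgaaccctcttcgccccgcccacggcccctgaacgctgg
DNAJB1 held 2 copies and the others 1 each, with 39 bases between the element and the start for the nearer copy of DNAJB1, 190 for DNAJA1 and 174 for HSPB1. The list was drawn from known heat shock genes, many of which are known for this element, so its share among them is a description and no result on ASO2.

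**Figure D3:**
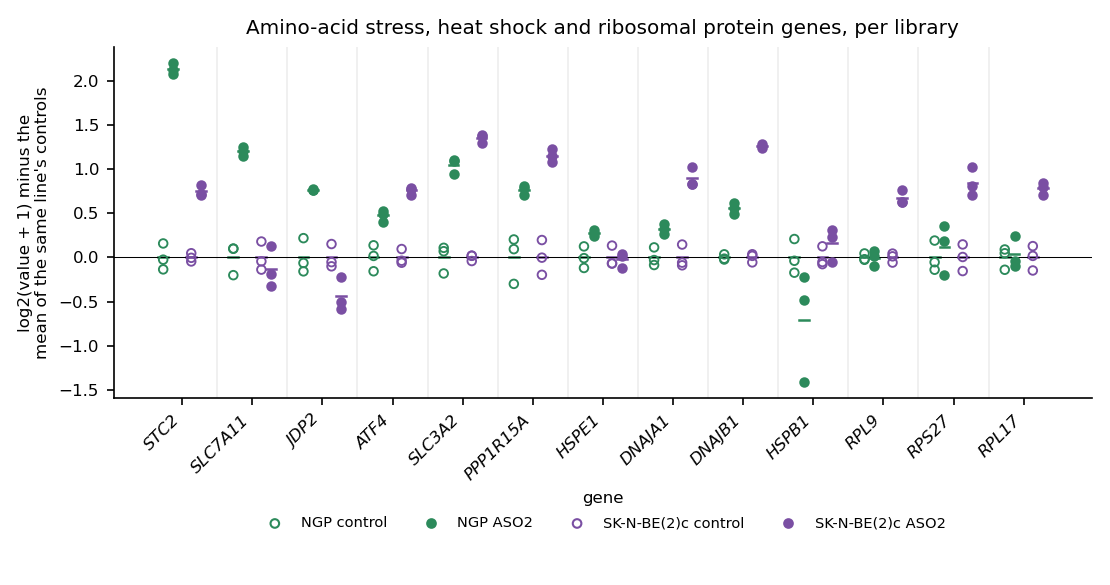
Named genes of the ATF4, chaperone and ribosomal protein lists, plotted per library as log2(value + 1) minus the mean of the 3 controls of the same line, with controls open, ASO2 filled and short bars for means. With ASO2 the means of STC2, SLC7A11 and JDP2 are farther up in NGP, those of DNAJA1, DNAJB1 and the 3 ribosomal protein genes in SK-N-BE(2)c, and the low value of NGP ASO2 3 is visible for HSPB1.

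Genes of the cytosolic ribosome that were called were all higher in SK-N-BE(2)c. Of 77 tested ribosomal protein genes, 37 were higher, 0 lower and 40 not called, and 73 differences were positive, with a median of 0.22. In SK-N-BE(2)c 72 rose (38.1% of all genes tested) and in NGP 50 (35.5% of all genes). With rescaled totals 23 were higher and 0 lower, and leaving out NCA 1 of both lines left 18 higher and 0 lower. There were 21 higher without NGP ASO2 2. The largest differences were those of RPL17 (0.75, adjusted p 0.00219), RPS27 (0.73, adjusted p 0.00876) and RPL9 (0.67, adjusted p 6.81e-05). RPL9 was at 396, 424 and 415 in the SK-N-BE(2)c controls and 698, 635 and 637 with ASO2, and at 824, 821 and 862 in the NGP controls and 784, 844 and 879 with ASO2, so that its groups were apart in SK-N-BE(2)c and overlapped in NGP. Ribosomal protein genes have many processed pseudogenes, and how the counting split reads between copies is not stated, so the value of a single member is uncertain. Of the genes that build ribosomes, 6 of 42 were higher and 1 lower (median 0.07), with 16.7% called in all beside 22.6% of all genes tested. With rescaled totals 3 were higher and 2 lower, and leaving out NCA 1 of both lines left 4 higher and 0 lower. There were 3 higher without NGP NCA 2 or SK-N-BE(2)c ASO2 1.

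Transcription elongation genes were higher for 11 of 28 members and lower for 0 (39.3% called, beside 22.6% of all genes tested), with a median difference of 0.22. With rescaled totals 8 were higher and 2 lower, and leaving out NCA 1 of both lines left 9 higher and 0 lower. MEPCE, which caps the 7SK RNA that holds the elongation kinase P-TEFb inactive, was at 1014, 1013 and 932 in the SK-N-BE(2)c controls and 1965, 1898 and 1891 with ASO2. In NGP it was at 978, 1011 and 808 in controls and 1079.7, 1078 and 1107 with ASO2. It rose in both lines without overlap and differed by 0.73 (SE 0.10, adjusted p 1.87e-05). PAF1 of the polymerase-associated complex differed by 0.52, adjusted p 8.24e-05. Splicing factors went 13 higher and 3 lower of 46 (34.8% called, beside 22.6% of all genes tested). SRRM1 (0.50, adjusted p 0.000104) and SF3B1 (0.40, adjusted p 0.000144) were higher and CELF1 (-0.37, adjusted p 0.00206) and SRSF1 (-0.37, adjusted p 0.00296) lower. With rescaled totals 9 were higher and 4 lower, and leaving out NCA 1 of both lines left 9 higher and 2 lower. There were 5 lower without NGP NCA 3. Among cleavage, termination and Integrator genes 6 of 35 were higher and 3 lower (25.7% called, beside 22.6% of all genes tested). With rescaled totals 2 were higher and 5 lower, and leaving out NCA 1 of both lines left 3 higher and 0 lower. There were 3 higher without NGP ASO2 2, NGP NCA 2, SK-N-BE(2)c ASO2 2 or SK-N-BE(2)c NCA 1. There was 1 lower without NGP ASO2 3, NGP NCA 2, SK-N-BE(2)c ASO2 3 or SK-N-BE(2)c NCA 2.

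Mitotic genes were higher for 17 of 42 members and lower for 1 (42.9% called, beside 22.6% of all genes tested), with a median difference of 0.22. With rescaled totals 11 were higher and 1 lower, and leaving out NCA 1 of both lines left 9 higher and 1 lower. In SK-N-BE(2)c 27 of them rose and 9 fell (38.1% and 36.7% of all genes tested). In NGP 17 rose and 10 fell (35.5% and 31.6% of all genes). AURKA, the mitotic spindle kinase that also stabilizes MYCN protein, was at 1685, 1777 and 1858 in the SK-N-BE(2)c controls and 2537, 2762 and 2627 with ASO2, without overlap, and at 994, 1058 and 1034 in the NGP controls and 1138, 1074 and 1038 with ASO2, with overlap. Its difference was 0.50 (SE 0.09, adjusted p 0.000218), that of the mitotic kinesin KIF20A 0.46, adjusted p 0.00041, and that of the anaphase activator CDC20 0.43, adjusted p 0.00259. CDK1 alone was lower (-0.29, adjusted p 0.0326), and CDK1 was not called without NGP ASO2 2, NGP ASO2 3, NGP NCA 2, SK-N-BE(2)c ASO2 3 or SK-N-BE(2)c NCA 3 (differences -0.29 to -0.22, adjusted p 0.0621 to 0.107). Replication and G1/S genes were mixed, with 12 higher and 3 lower of 52 (28.8% called, beside 22.6% of all genes tested). With rescaled totals 7 were higher and 7 lower, and leaving out NCA 1 of both lines left 9 higher and 2 lower. There were 6 lower without NGP NCA 3. E2F2, a transcription factor of S phase entry, rose from 980.5, 1048 and 883 to 1684, 1696 and 1730.0 in SK-N-BE(2)c and stood at 1498, 1592 and 1462 in the NGP controls and 1481, 1505 and 1583 with ASO2, a difference of 0.81 (SE 0.09, adjusted p 9.88e-07). The licensing factors CDT1 (0.59, adjusted p 0.000484) and ORC1 (0.58, adjusted p 0.000375) were higher too, and the ribonucleotide reductase subunit RRM2 (-0.36, adjusted p 0.0015) and the clamp loader subunit RFC3 (-0.35, adjusted p 0.0041) lower.

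Respiratory chain and proteasome genes had smaller median differences, 0.16 for the 13 protein genes of mitochondrial DNA, 0.11 for the nuclear respiratory chain genes and 0.12 for the proteasome. Of the mitochondrial genes 5 were higher and 0 lower (4 higher and 0 lower with rescaled totals, 4 and 0 without NCA 1 of both lines), and MT-ND6, a subunit of complex I, differed most (0.56, adjusted p 0.000809). The share of these genes called was 38.5%, beside 22.6% of all genes tested. Nuclear respiratory chain genes were higher for 13 of 73 and lower for 1 (19.2% called, beside 22.6% of all genes tested). With rescaled totals 6 were higher and 1 lower, and leaving out NCA 1 of both lines left 5 higher and 1 lower. There were 5 higher without SK-N-BE(2)c NCA 2, 7 without NGP ASO2 2 or NGP NCA 1, and 8 without NGP NCA 2 or SK-N-BE(2)c ASO2 2. Proteasome genes were higher for 9 of 36 and lower for 0 (25.0% called, beside 22.6% of all genes tested). With rescaled totals 4 were higher and 1 lower, and leaving out NCA 1 of both lines left 5 higher and 0 lower. There were 3 higher without NGP ASO2 2, 4 without SK-N-BE(2)c NCA 2, and 5 without NGP ASO2 1, SK-N-BE(2)c ASO2 2 or SK-N-BE(2)c NCA 1.

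Sterol synthesis genes went the other way. Of 30 tested genes of cholesterol and fatty acid synthesis, 9 were lower and 0 higher, with a median difference of -0.14. This is 30.0% called, beside 22.6% of all genes tested. With rescaled totals, which moved all genes towards lower, 0 were higher and 13 lower. Leaving out NCA 1 of both lines left 0 higher and 6 lower. INSIG1, the sterol sensor that retains the pathway's transcription factors in the endoplasmic reticulum, was at 653, 559.6 and 638 in the SK-N-BE(2)c controls and 441, 486 and 470.3 with ASO2, and at 618, 626 and 652 in the NGP controls and 762, 759 and 877 with ASO2. It fell in SK-N-BE(2)c and rose in NGP, in neither with overlap, and the difference was -0.74 (SE 0.11, adjusted p 6.81e-05). MSMO1, an enzyme of cholesterol synthesis, went the same 2 ways (-0.55, SE 0.12, adjusted p 0.00174), though its rise of 0.20 in NGP only just passed (adjusted p 0.0423). With ASO10 the differences were -1.17 (adjusted p 1.28e-06) for INSIG1 and -1.56 (adjusted p 1.16e-07) for MSMO1, and 20 of the 30 genes were lower (11.7% of all genes tested).

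Signalling genes of the ID family and SMAD feedback, which answer bone morphogenetic proteins and TGF-beta, were lower for 7 of 18 and higher for 0. The share called was 38.9%, beside 22.6% of all genes tested. With rescaled totals, which moved all genes towards lower, 0 were higher and 10 lower. Leaving out NCA 1 of both lines left 0 higher and 4 lower. There were 4 lower without NGP ASO2 3 or NGP NCA 1. ID3, an inhibitor of neuronal differentiation factors, was at 2399, 2294 and 2099 in the NGP controls and 3814, 3916 and 4229 with ASO2. For SK-N-BE(2)c cells the values were 3267, 3178 and 3047 in controls and 3512, 3532 and 3330.4 with ASO2. It rose in both lines, though the effect of 0.13 in SK-N-BE(2)c is within the shift that rescaling makes, against 0.82 in NGP, and differed by -0.69 (SE 0.08, adjusted p 1.82e-06). The inhibitory SMAD6 (-0.60, adjusted p 0.00565) stayed called without each library. The receptor ACVR1 (-0.72, adjusted p 0.0186) did not: it was not called without NGP NCA 1 or SK-N-BE(2)c ASO2 3 (differences -0.66 to -0.59, adjusted p 0.0549 to 0.055). With NCA 1 of both lines left out, SMAD6 (adjusted p 0.066) and ACVR1 (adjusted p 0.069) were not called.

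The transcription factors of the adrenergic state were divided, with 5 higher and 7 lower of 19, 63.2% called in all beside 22.6% of all genes tested. MYCN, the gene amplified in both lines, was among those lower. Its count was 32304, 28362 and 29682 in the SK-N-BE(2)c controls and 19952, 20723 and 18322 with ASO2, and 46057, 43295 and 47028 in the NGP controls and 44222, 44378 and 40482 with ASO2. It fell without overlap in SK-N-BE(2)c, its NGP groups overlapped, and the difference was -0.53 (SE 0.08, adjusted p 3.71e-05). KLF7 was lower too (-0.56, adjusted p 0.000294). ISL1 (0.55, adjusted p 2.69e-05) and SATB1 (0.48, adjusted p 0.00144) were higher and rose in SK-N-BE(2)c. In IMR32, MYCN had an effect of -0.0025 (adjusted p 0.976). With ASO10 the difference between the lines was -0.54 (adjusted p 8.54e-06) for MYCN. With rescaled totals 2 were higher and 7 lower, and leaving out NCA 1 of both lines left 5 higher and 7 lower. There were 2 higher without NGP ASO2 1, NGP ASO2 3, SK-N-BE(2)c ASO2 1, SK-N-BE(2)c ASO2 2 or SK-N-BE(2)c NCA 2, and 3 without NGP ASO2 2, NGP NCA 1, NGP NCA 2 or SK-N-BE(2)c NCA 3.

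Of 32 genes of the neuronal cytoskeleton and axon growth, 8 were lower and 2 higher (31.2% called, beside 22.6% of all genes tested). With rescaled totals, which moved all genes towards lower, 2 were higher and 11 lower. Leaving out NCA 1 of both lines left 1 higher and 4 lower. NRP2 (-0.45, adjusted p 0.00657), SEMA6A (-0.36, adjusted p 0.00996) and the neurofilament NEFM (-0.35, adjusted p 0.00115) were lower, and the microtubule proteins DCX (0.56, adjusted p 0.000258) and TUBB3 (0.51, adjusted p 0.0115) higher. With NCA 1 of both lines left out, SEMA6A (adjusted p 0.075) and TUBB3 (adjusted p 0.0663) were not called. Of 15 receptors and surface antigens studied as neuroblastoma targets, 3 were lower and 0 higher: the Notch ligand DLL3 (-0.71, adjusted p 0.00263), the somatostatin receptor SSTR2 (-0.62, adjusted p 0.0127) and the noradrenaline transporter SLC6A2 (-0.45, adjusted p 0.000378). The share of this list called in either direction was below the 22.6% of all genes tested. With rescaled totals, again with that move of all genes, 0 were higher and 7 lower. Leaving out NCA 1 of both lines left 0 higher and 3 lower. There were 5 lower without NGP ASO2 3, and 7 without NGP NCA 3. Of 17 genes of catecholamine synthesis and chromogranins, 2 were higher and 4 lower (2 higher and 5 lower with rescaled totals, 2 and 3 without NCA 1 of both lines). The share called was 35.3%, beside 22.6% of all genes tested. VGF, a neuropeptide precursor, was at 5158, 4281 and 3978 in the SK-N-BE(2)c controls and 13422, 11955 and 10688 with ASO2, and at 1185, 1099.7 and 1108 in the NGP controls and 1802, 1539 and 1358 with ASO2. It rose without overlap in both, and the difference was 0.97 (SE 0.12, adjusted p 7.38e-06). DBH, the enzyme that makes noradrenaline, differed by 0.50, adjusted p 0.00331.

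**Figure D4:**
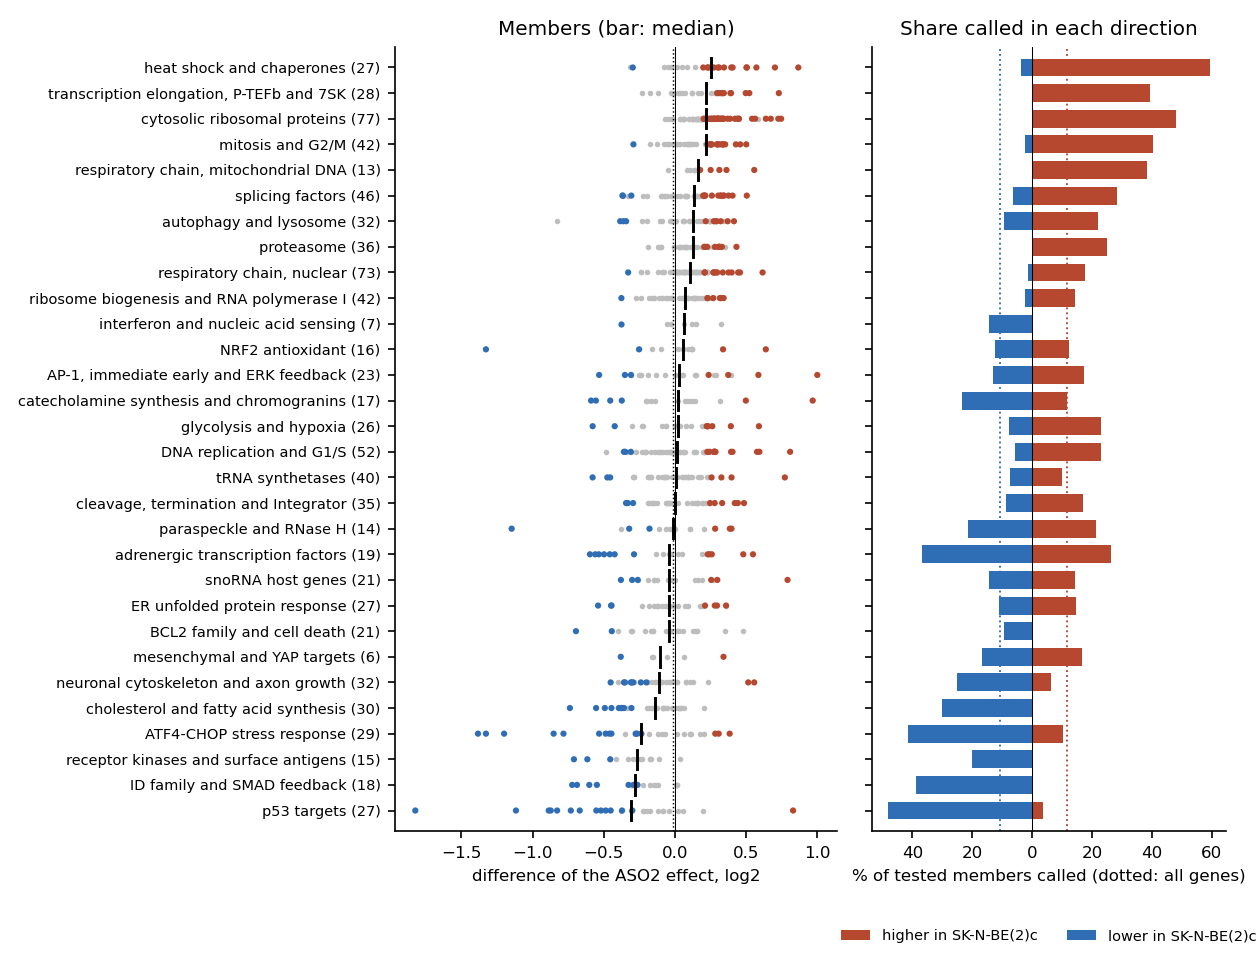
The 30 gene lists, ordered by median difference, with the number of tested members in brackets. On the left each point is a member's difference of the ASO2 effect (log2, SK-N-BE(2)c minus NGP), red or blue where called, with a bar at the list median and a dotted line at the median of all genes; on the right are the shares of members called higher and lower, with dotted lines at 11.8% and 10.9% for all genes. Heat shock genes are highest and p53 targets lowest.

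In the other lists, as in some of those above, calls fell on both sides or were near the background of 22.6% called over all genes tested. Genes of the endoplasmic reticulum stress response went 4 higher and 3 lower of 27, with XBP1 (-0.45, adjusted p 0.000616) and its activating kinase ERN1 (-0.54, adjusted p 0.00732) lower. With rescaled totals 0 were higher and 3 lower, and leaving out NCA 1 of both lines left 0 higher and 3 lower. There were 0 higher without NGP NCA 2, 1 without NGP ASO2 2, NGP NCA 1, SK-N-BE(2)c ASO2 2 or SK-N-BE(2)c NCA 2, and 2 without NGP ASO2 1, SK-N-BE(2)c ASO2 1 or SK-N-BE(2)c ASO2 3. NRF2 targets went 2 and 2 of 16 (2 higher and 2 lower with rescaled totals, 2 and 1 without NCA 1 of both lines), with NQO1 higher (0.64, adjusted p 0.00171). Immediate early genes went 4 and 3 of 23 (3 higher and 6 lower with rescaled totals, 4 and 1 without NCA 1 of both lines), led by FOS (1.00, adjusted p 0.00465) and NR4A1 (0.59, adjusted p 0.00168) among those higher. There were 7 higher without NGP NCA 3. There was 1 lower without NGP NCA 1. tRNA synthetases went 4 and 3 of 40 (3 higher and 7 lower with rescaled totals, 3 and 3 without NCA 1 of both lines), with HARS2 higher (0.77, adjusted p 2.11e-06) and WARS1 (-0.48, adjusted p 0.000679) and CARS1 (-0.46, adjusted p 0.000861) lower. There were 7 higher without NGP NCA 3. Hypoxia and glycolysis genes went 6 and 2 of 26 (3 higher and 3 lower with rescaled totals, 5 and 1 without NCA 1 of both lines), with the demethylase KDM3A higher (0.59, adjusted p 0.000117) and VEGFA, the angiogenic growth factor, lower (-0.58, adjusted p 1.8e-05), since it rose by 1.21 in NGP against 0.63 in SK-N-BE(2)c. There was 1 lower without NGP ASO2 2, NGP ASO2 3, NGP NCA 1, NGP NCA 2, SK-N-BE(2)c ASO2 3 or SK-N-BE(2)c NCA 1. Host genes of small nucleolar RNAs went 3 and 3 of 21 (2 higher and 5 lower with rescaled totals, 2 and 2 without NCA 1 of both lines), and SNHG17 differed most (0.79, adjusted p 6.91e-07).

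Genes of the BCL2 family and of cell death were seldom called, with 0 higher and 2 lower of 21 (0 higher and 3 lower with rescaled totals, 0 and 2 without NCA 1 of both lines). The share called was 9.52%, beside 22.6% of all genes tested. BCL2L11, which encodes the death activator BIM, was at 294, 268 and 284 in the NGP controls and 643, 629 and 584 with ASO2, while SK-N-BE(2)c had 369, 311 and 297 in controls and 433, 442 and 439 with ASO2. The gene rose in both lines without overlap and more in NGP, with a difference of -0.70 (SE 0.13, adjusted p 0.00041). BCL2 was the other gene lower (-0.44, adjusted p 0.0254), and BCL2 was not called without NGP ASO2 1, NGP NCA 1, NGP NCA 2, SK-N-BE(2)c ASO2 1 or SK-N-BE(2)c NCA 3 (differences -0.43 to -0.38, adjusted p 0.053 to 0.0813). Genes of autophagy and the lysosome went 7 higher and 3 lower of 32 (4 higher and 3 lower with rescaled totals, 4 and 2 without NCA 1 of both lines). There were 4 higher without NGP ASO2 1 or SK-N-BE(2)c NCA 2, and 12 without NGP NCA 3. Mesenchymal and YAP genes went 1 and 1 of 6 (1 higher and 1 lower with rescaled totals, 1 and 1 without NCA 1 of both lines). Genes that sense nucleic acids or answer interferon went 0 and 1 of 7 (0 higher and 1 lower with rescaled totals, 0 and 1 without NCA 1 of both lines), where 34 were listed and the others were below the filter. There were 0 lower without NGP NCA 2, SK-N-BE(2)c ASO2 2 or SK-N-BE(2)c NCA 3.

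The nuclear long non-coding RNAs NEAT1 and MALAT1 differed in opposite directions. NEAT1, the scaffold of paraspeckles, was at 1886, 2355 and 2158 in the SK-N-BE(2)c controls and 539, 562 and 525 with ASO2, and at 2729.7, 2675 and 2500.3 in the NGP controls and 1404, 1559 and 1513 with ASO2. It fell in both lines without overlap, with log2 effects of -1.97 in SK-N-BE(2)c and -0.82 in NGP, and differed by -1.15 (SE 0.10, adjusted p 1.76e-08). MALAT1, its neighbour in the genome and a resident of nuclear speckles, fell by more in NGP: 3709, 3490.5 and 3303 in the controls and 1821, 1747 and 1903 with ASO2, against 1194, 1369 and 1397 in the SK-N-BE(2)c controls and 901, 926 and 887 with ASO2, a difference of 0.40 (SE 0.09, adjusted p 0.00289). Of the 14 genes of paraspeckles and RNase H, 3 were higher and 3 lower (2 higher and 3 lower with rescaled totals, 2 and 1 without NCA 1 of both lines). The share called was 42.9%, beside 22.6% of all genes tested. There was 1 lower without NGP ASO2 1, NGP ASO2 2, NGP NCA 1, SK-N-BE(2)c ASO2 1 or SK-N-BE(2)c NCA 3. In IMR32 NEAT1 had an effect of -0.16 (adjusted p 0.278), and with ASO10 its difference between the lines was -1.07 (adjusted p 9.67e-09). MALAT1 and the long isoform of NEAT1 end without a poly(A) tail, so their counts can depend on the library kit, which is not stated.

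RGMA, GDF15 and RGS16 had the lowest differences among genes that stayed called without each library. RGMA, a repulsive axon guidance molecule, differed most: 56.5, 60.5 and 40.5 in the SK-N-BE(2)c controls and 22.1, 21.8 and 16.8 with ASO2, beside 71.0, 101 and 85.1 in the NGP controls and 114, 125 and 150.2 with ASO2, a difference of -1.92 (SE 0.28, adjusted p 4.05e-05). It fell in SK-N-BE(2)c and rose in NGP, in neither with overlap. RGS16, which shortens G protein signals, was at 244, 237 and 175 in the NGP controls and 845, 765 and 869 with ASO2, but at 2548, 2434 and 2569 in the SK-N-BE(2)c controls and 2851, 2841 and 2830.1 with ASO2. It rose in NGP, and its effect in SK-N-BE(2)c was 0.17, which missed the threshold although the groups were apart. The difference was -1.75 (SE 0.12, adjusted p 5.44e-10). APBB2, an adaptor of the amyloid precursor protein, went from 176, 170.4 and 162 to 89.5, 103 and 81.6 in SK-N-BE(2)c and from 959.7, 961 and 1093 to 1526, 1505 and 1562 in NGP, again in opposite directions (-1.50, SE 0.13, adjusted p 1.79e-08). DYNC1I1, an intermediate chain of dynein (-1.36, adjusted p 1.46e-05), and KCTD12, a subunit of GABA-B receptors (-1.19, adjusted p 1.08e-06), fell in SK-N-BE(2)c and rose in NGP. SLC12A8, of the cation-chloride cotransporter family, moved in the same opposite ways and differed by -1.46, adjusted p 0.000235, and STC2, SLC7A11, JDP2 and GDF15 complete the 10 lowest.

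At the other end, the 10 highest differences among called genes with a symbol that stayed called without each library ran from 1.13 to 1.39. FERMT3, an integrin activator, rose in both lines, from 62.8, 68.6 and 31.8 to 369, 289 and 312 in SK-N-BE(2)c and from 128, 152 and 106 to 361, 247 and 370.4 in NGP (1.29, SE 0.28, adjusted p 0.00216). PYGM, the muscle glycogen phosphorylase, rose from 42.9, 74.6 and 36.6 to 262, 179 and 209.9 in SK-N-BE(2)c and from 223, 227 and 125 to 330.5, 269 and 386 in NGP (1.30, SE 0.30, adjusted p 0.00325). CYP27B1, the enzyme that activates vitamin D, rose in both lines, from 47.1, 46.4 and 61.7 to 182, 161 and 159.6 in SK-N-BE(2)c and from 2849, 2766 and 2631 to 4087, 4066 and 3873 in NGP (1.14, SE 0.13, adjusted p 1.08e-06). FOXO4, a transcription factor of stress resistance, rose in both too (1.13, SE 0.20, adjusted p 0.000246). CFAP44, a protein of cilia and flagella, fell in NGP from 325, 348 and 382 to 123, 116 and 116 and overlapped with its controls in SK-N-BE(2)c (1.33, SE 0.20, adjusted p 4.29e-05). BAIAP2-DT, a non-coding transcript, had 1.39 (SE 0.34, adjusted p 0.00512), and leaving out single libraries gave 0.94 to 1.76. UAP1L1 had 1.14 (SE 0.15, adjusted p 1.49e-05).

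Genes with a symbol that were called with opposite signs were ranked by the size of the smaller of their 2 effects, and the first 5 of each direction are named. NRDE2, a nuclear RNA surveillance factor, was one of those higher. Its count was 468, 459 and 488 in the SK-N-BE(2)c controls and 668, 755 and 809.8 with ASO2, and 1708, 1893 and 1809 in the NGP controls and 1121, 1230.3 and 1115 with ASO2. All ASO2 libraries were above their controls in SK-N-BE(2)c and below them in NGP, and the difference was 1.30 (SE 0.10, adjusted p 4.07e-09). The zinc finger gene ZNF256 (1.27, SE 0.19, adjusted p 6.77e-05), the centriolar ENKD1 (1.24, SE 0.24, adjusted p 0.000578), TNRC18 (1.05, SE 0.19, adjusted p 0.00044) and the kinase MOK (0.96, SE 0.14, adjusted p 3.2e-05) also rose in SK-N-BE(2)c and fell in NGP. For ENKD1 the NGP libraries overlapped, at 53.7, 61.1 and 41.0 in the controls and 41.8, 25.7 and 24.5 with ASO2. With ASO10 its difference had the other sign, -1.47 (adjusted p 1.33e-05), and that of NRDE2 was 0.29 (adjusted p 0.0324). By that measure, and not by the difference, the first 5 among genes lower were RGMA, GDF15, APBB2, DYNC1I1 and GPR180 (-0.90, SE 0.17, adjusted p 0.000575).

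The direction of the difference went with the length of the gene. The 9986 genes with a known genomic span were split by it into 5 groups of like size. The shortest genes (up to 10.7 kb) had a median difference of 0.10, with 19.8% of them called higher and 6.26% lower. The longest genes (from 97.5 kb) had a median of -0.16, with 3.0% higher and 17.2% lower. Genes called higher had a median span of 16.9 kb, genes called lower 57.9 kb, and genes not called 34.7 kb. Long genes had lower effects in both lines, the more so in SK-N-BE(2)c: the median effect in the longest group was -0.46 there, beside -0.27 in NGP. The order held with rescaled totals (medians 0.04 and -0.23 for the shortest and longest groups). It held as well when the genes were first split into 3 by control level, with medians of 0.05 and -0.19 at the lowest levels and of 0.14 and -0.13 at the highest. With ASO10 the medians were 0.07 and -0.06 for the same groups. In IMR32, which shares no library with these, the median effect of ASO2 itself was 0.13 in the shortest group and -0.08 in the longest. Control level went with the difference too, and split into 5 groups by it the genes had medians from -0.08 at the lowest levels to 0.06 at the highest. Genes are not independent, and these are descriptions with no test. The part of gene length in the counts of the lists above was not tested.

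**Figure D5:**
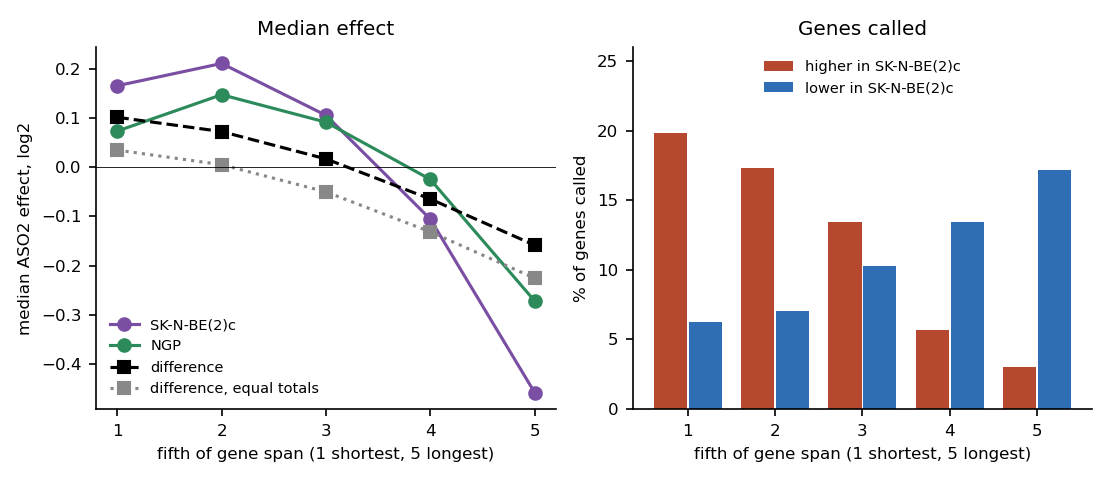
Genes in 5 groups of like size by genomic span. The left plot gives the median log2 effect of ASO2 in each line, the median difference and the same with libraries rescaled to equal totals, and the right plot the percent of genes called in each direction; the median difference is 0.10 for the shortest genes and -0.16 for the longest.

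Beside the 2 lines, the IMR32 effect was nearer to that of NGP for most genes, but large effects were few in IMR32. Called effects of at least 1 log2 unit numbered 28 of 12418 genes tested there. Of 10119 genes, SK-N-BE(2)c had 1043 and NGP 616. The genes were picked for a gap in which SK-N-BE(2)c mostly moved further, so small effects by themselves place a line nearer to NGP. A likeness of IMR32 to NGP therefore cannot be read from the shares below. Of the 1129 genes higher that were tested in IMR32, 678 rose there and 33 fell, with a median effect of 0.20 against 0.56 in SK-N-BE(2)c and 0.17 in NGP. Of the 1044 genes lower, 188 rose and 252 fell, with a median of -0.03 against -0.40 and 0.07. The IMR32 effect was nearer to that of NGP for 74.1% of genes higher and 66.8% of genes lower, and for 59.5% of genes that were not called. Whether IMR32 differs from either line was not tested, because its table was scaled apart.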

How the data were processed

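RNA sequencing of 12 libraries was used (NGP and SK-N-BE(2)c, ASO2 or NCA, 3 each), with 8 of IMR32 and 6 of ASO10 set beside them. The deposited values are gene counts that the authors divided by a size factor per library, a normalized signal, per the labels and the values: every value was a whole multiple of 1 step per column (tolerance 0.01 reads, 100% whole), so reads could be recovered. Size factors ran from 0.834 to 1.13 over the 12 libraries, which share 1 scaling; IMR32 was scaled apart. The tools FastQC 0.11.8, cutadapt 1.18, STAR 2.6.0, HTSeq 0.6.1 and DESeq2 1.42.0 and the build hg19/GRCh37 are named, with no role, per the submitters' processing notes; filters are not given in the sources used here. Of all columns, 0 were unused.

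Tables were joined by gene ID, and 89.8% of IDs have a symbol from the reference table. The difference between the lines was tested with limma 3.58.1 (R 4.3.3) on log2(value + 1) with a mean-variance trend and 1 mean per group, over genes with a control mean of at least 50 in both lines. A fold on this scale understates changes of low genes. All adjusted p-values are Benjamini-Hochberg values over all genes tested, from limma unless edgeR 4.0.16 (quasi-likelihood test) or DESeq2 1.42.0, both run on recovered reads, is named. On simulated data for this comparison (10119 genes), differences of 0.5 on the log2 scale were called in 60.0% of 100 changed genes, and differences of 1 in 98.0%. The other 9919 genes were given no difference, a smaller changed share than the 22.6% called in the data. Since the adjustment depends on that share, these rates need not hold for the data. Gene spans come from GENCODE release 29 and promoter sequences from RefSeq (GRCh38.p14).

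The genes compared and the 30 gene lists were chosen with earlier results of these data known. Of 1021 list entries, 5 symbols were not found. Named were the 10 highest and 10 lowest differences among called genes with a symbol that stayed called without each library; of genes called with opposite signs, the 5 of each direction whose smaller effect was largest in size; up to 3 called members a direction of each list, and every p53 target; and LINC00682, MYCN, MDM2 and CDKN1A. Other genes that the rule names are not reported here. HSPE1, CDK1 and BCL2 came under the same rule. Alternatives were other pseudocounts, filters, scalings, tests and sets of libraries.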

Additional observations from a re-analysis of the deposited data

Results flagged for a closer look

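The response to ASO2 differed between the 2 lines, by the test of the difference itself, for 2291 genes. The 20 genes with a symbol and the most extreme differences that stayed called without each library stand out by the same test. On the log2 scale, SK-N-BE(2)c minus NGP, those lower were RGMA (-1.92), GDF15 (-1.82), RGS16 (-1.75), APBB2 (-1.50), SLC12A8 (-1.46), STC2 (-1.38), DYNC1I1 (-1.36), SLC7A11 (-1.33), JDP2 (-1.20) and KCTD12 (-1.19), and those higher were BAIAP2-DT (1.39), CFAP44 (1.33), PYGM (1.30), NRDE2 (1.30), FERMT3 (1.29), ZNF256 (1.27), ENKD1 (1.24), CYP27B1 (1.14), UAP1L1 (1.14) and FOXO4 (1.13).

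In IMR32, which has 4 libraries a group, single libraries stood far from the others of their group by Dixon's criterion. These were an ASO2 library with a normalized count of 495.8 for RRM2B, ASO2 libraries with 350.8 for SESN1 and 1305 for SLC7A5, and control libraries with 700.8 for SLC1A4 and 2089 for HSPH1. This makes 5 of 28 groups looked at, where a group is 1 gene in the libraries of 1 treatment. For a single group chance gives about 1 in 20. The genes share the same libraries and are not independent, so the count is not a test against that rate. Groups of 3 libraries were not looked at in this way.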

How the results depend on the processing

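Most single genes kept their call. Of 174 named genes tested, 159 were called and 119 of these stayed called without each library in turn. Over 26 alternatives the named genes gave 4310 values, of which 3984 kept direction and call, 295 lost the call, 14 gained one and 17 changed sign, with 0 of the sign changes in a called gene. The count of called genes was 2293 and 2291 with pseudocounts of 0.5 and 10, 2252 with TMM scaling, 2425 with 18 libraries in the fit, 1749 without a mean-variance trend, 2393 with edgeR and 2293 with DESeq2. Without each library in turn it ran from 1654 (without NGP NCA replicate 1) to 3060 (without NGP NCA replicate 3), with 878 to 1520 higher and 776 to 1540 lower.

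Counts that moved further were these. With libraries rescaled to equal totals 752 genes were higher and 1672 lower. Without NCA replicate 1 of both lines 1385 were called, 773 higher and 612 lower. Without a filter on low values, where 30959 genes were tested, 731 were lower and 829 higher. With a minimum difference of 1 log2 unit 51 were called, 16 higher and 35 lower. Without a trend the calls of SESN2, CCNG1, PPP1R15A, SLC3A2, ATF4, HSPB1, HSPE1 and CDK1 were lost, and the same genes, with DDB2, BCL2 and ACVR1, lost theirs without a filter. The causes were not tested.

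Signs changed for 4 named genes that were not called. Rescaled totals gave BAX -0.0105, PPM1D -0.0427 and LINC00682 -0.0235, and leaving out control replicate 1 of both lines gave PPM1D -0.107. Leaving out single libraries gave -0.187 to 0.115 for BBC3, -0.0782 to 0.0868 for PPM1D and -0.0653 to 0.114 for LINC00682.

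With the replicate number within each line as a block, 2344 genes were called, 1222 higher and 1122 lower. Whether the numbers pair the samples is not stated. In NGP the deviations of same-numbered ASO2 and control libraries had correlations between -0.168 and -0.0541, and those of differently numbered libraries between -0.0767 and 0.138. In SK-N-BE(2)c they lay between -0.0839 and 0.231 for the same number and between -0.231 and 0.099 for different numbers, so pairing there is not settled.

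The median standard error of a difference was 0.12 on the log2 scale, which limits what small differences can be seen with 3 libraries a group. Precision is lowest for genes near the control mean of 50.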
